A study of Mus musculus with 2 samples.

Results

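Fibroblasts are commonly sorted and classified by a small set of stromal markers, and 10 such genes, Thy1, Fap, Pi16, Dpt, Cd34, Ly6a, S100a4, Cd44, Dpp4 and Nt5e, are described here out of 17260 genes in the deposited count table. They were taken by gene symbol alone, and all 10 were found. RNA had been sequenced from mouse embryonic fibroblasts, connective tissue cells grown in culture, with 1 library labelled Ahi1-/- and 1 from wild-type (WT) cells. Both cultures were C57BL/6, came from embryos at day 13.5, and were grown in DMEM with 10% serum without any other treatment named in the labels. How many embryos or cultures stand behind each library, at which passage, and which part of Ahi1 was targeted: not given in the sources used here.

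No genotype was replicated, so no test could be made, and every interval below is an exact 95% interval for counting error only. Differences therefore describe these libraries and not the genotypes. The column heads CON and EXP were read as WT and Ahi1-/-, which the files do not spell out. Libraries held 20820756 counts (labelled Ahi1-/-) and 19067504 counts (WT). Ahi1, which encodes a protein at the base of the primary cilium, had 370 and 410 counts, a log2 ratio of -0.16 (-0.37 to 0.05), so its counts are no check of the genotype. A deletion that leaves most of the transcript would not show in them, and the library is called "labelled Ahi1-/-" throughout.

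No single gene defines a fibroblast, so stromal subsets are separated by combinations of these markers. Several of the products are anchored in the outer membrane by a lipid (THY1, LY6A and NT5E), FAP and DPP4 are membrane peptidases, and CD44 and CD34 are transmembrane glycoproteins. PI16 is a peptidase inhibitor family protein that marks adventitial fibroblasts. S100A4, once called fibroblast-specific protein, is a calcium-binding protein inside the cell, and DPT (dermatopontin) is secreted into the matrix, so the word surface does not describe that pair. Most of these markers are shared with other cells: mouse Thy1 with neurons and T cells, Cd34 with endothelium and blood progenitors, Ly6a with blood stem cells and endothelium, and Cd44 and S100a4 with leukocytes.

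Promoter sequences are shown for S100a4, the member with the highest level, Dpt, the member with the lowest ratio, and Cd44, the member higher in the library labelled Ahi1-/- that the promoter table holds. Each runs from 250 bases before to 50 bases after the annotated start, 5′ to 3′ on the strand of the gene, from RefSeq on GRCm38.p6, in which 7 of the 10 members were matched. Capitals mark the motifs found. The S100a4 promoter lies at chr3:90603520-90603819 (+), that of Dpt at chr1:164796413-164796712 (+) and that of Cd44 at chr2:102901616-102901915 (-).
S100a4: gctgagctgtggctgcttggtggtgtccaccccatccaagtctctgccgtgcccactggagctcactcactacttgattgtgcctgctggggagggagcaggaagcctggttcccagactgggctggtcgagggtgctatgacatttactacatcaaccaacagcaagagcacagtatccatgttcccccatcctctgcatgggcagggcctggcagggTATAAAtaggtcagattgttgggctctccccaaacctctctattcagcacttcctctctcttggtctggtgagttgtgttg
Dpt: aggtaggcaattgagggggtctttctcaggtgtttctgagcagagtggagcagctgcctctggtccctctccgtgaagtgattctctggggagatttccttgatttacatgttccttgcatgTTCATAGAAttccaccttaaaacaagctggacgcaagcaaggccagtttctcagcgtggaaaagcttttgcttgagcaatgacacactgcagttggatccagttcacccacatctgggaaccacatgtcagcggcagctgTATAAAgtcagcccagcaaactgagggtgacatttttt
Cd44: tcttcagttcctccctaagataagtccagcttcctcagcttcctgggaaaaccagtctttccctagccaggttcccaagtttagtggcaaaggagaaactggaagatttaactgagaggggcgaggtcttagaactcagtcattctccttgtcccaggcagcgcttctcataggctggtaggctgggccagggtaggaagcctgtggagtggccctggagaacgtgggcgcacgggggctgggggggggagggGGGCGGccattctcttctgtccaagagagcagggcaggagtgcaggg

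The motifs searched on both strands were the TATA box (TATAAA), the GC box (GGGCGG), the CCAAT box (CCAAT), the AP-1 site (TGANTCA), the interferon-activated GAS element (TTCNNNGAA) and the E-box (CACGTG). Among all 32851 promoter windows, 13.6% held the TATA box, 35.7% the GC box, 37.4% the CCAAT box, 7.81% the AP-1 site, 8.30% the GAS element and 7.15% the E-box. In S100a4 the only match was a TATA box that begins 31 bases before the start. Dpt had a TATA box that begins 12 bases after the start and a GAS element that begins 128 bases before it. Cd44 had a single GC box, 3 bases after the start. The window of Nt5e was the richest in GC of the members (71.0%, against a median of 52.7% over all windows) and held 4 GC box matches, in 2 pairs that overlap. Dpp4 had a TATA box 227 bases before the start, Pi16 a CCAAT box 64 bases before it, and Cd34 no match. A match describes letters and shows no binding.

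The markers did not move together. Thy1, Fap, Ly6a and Cd44 exceeded WT at least 2-fold in the library labelled Ahi1-/-, while Dpt, S100a4 and Dpp4 were at least 2-fold lower. Nt5e and Cd34 lay within 2-fold of WT, and Pi16 was too rare to read. A gene was counted as apart when its scaled counts differed at least 2-fold and the higher library had at least 50 counts. By this rule 4 of 10 members were higher and 3 lower. Among all 12075 genes with that many counts, 1934 (16%) were higher and 10.3% lower. In all, 9 members reached the minimum, and Fap and Dpp4 reached it through their higher library only.

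At 4-fold, Thy1, Fap and Ly6a remained higher and Dpt lower (3 and 1 of 10 members), against 8.93% and 2.48% of all genes. At 1.5-fold Nt5e joined the higher ones (5 and 3 of 10), against 23.6% and 21.6% of all genes. With a minimum of 10 counts the members were as in the main rule, with 19.4% of all genes higher and 11.7% lower. Without any minimum Pi16 joined the lower ones, against 19.5% and 12.9% of all genes with a ratio. The median log2 ratio over all 10 members was 0.14, and it was -0.01 over the 15950 genes with a ratio.

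**Figure D1:**
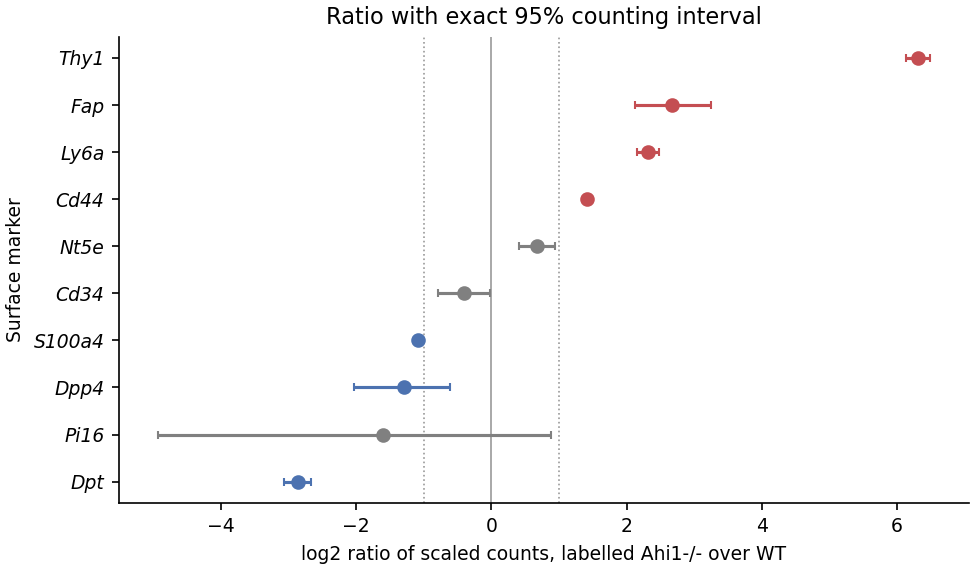
Log2 ratio of scaled counts (labelled Ahi1-/- over WT) for each of the 10 markers, with the exact 95% counting interval as a bar. Red points are at least 2-fold higher with at least 50 counts, blue points at least 2-fold lower, grey points neither, and dotted lines mark 2-fold. Thy1 stands far above the others at 6.31, and the bar of Pi16, which rests on 2 and 6 counts, crosses 0.

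Thy1 was the member with the largest difference. Thy1 (Entrez gene 21838, chromosome 9 of GRCm38.p6) encodes the lipid-anchored glycoprotein CD90, used to sort fibroblasts and mesenchymal stromal cells. It had 20631 counts in the library labelled Ahi1-/- and 258 in WT, or 1338 and 16.3 TPM, a level corrected for transcript length and depth. Scaled for library size this was 79.3-fold higher (70.1 to 90.0), a log2 ratio of 6.31. Among the 12075 genes with the minimum count its ratio ranked 112 from the top. By level it ranked 122 of all genes in the library labelled Ahi1-/- and 7305 in WT. Thy1 thus stood among the abundant transcripts of one library and near the middle of the other.

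Mouse neurons and T cells also carry Thy1, so their markers were read beside it. Of 8 measured neuronal and glial genes on a list of 11, 5 reached 50 counts, and all 5 passed the 2-fold rule upward in the library labelled Ahi1-/-, beside 16% of all genes. The list had a median of 2.17 (log2), a summed level of 192 and 65.9 TPM, and 0 and 2 genes at 0. Stmn2, a microtubule regulator of neurons, had 197 and 1 counts (log2 7.61, 5.11 to 12.92), and Map2, of dendritic microtubules, 167 and 9. The adhesion molecule Ncam1 had 5060 and 2117 counts, Tubb3 1318 and 428, and L1cam 71 and 28. Below the minimum, the glial gene Sox10 had 30 and 0 counts, 9.91-fold higher (log2 3.31) against a floor of 3 counts. The neuronal gene Elavl4 had 20 and 0, 6.61-fold higher (log2 2.72) by the same floor. Their counting intervals start at log2 2.92 and 2.29. The synaptic gene Snap25 had 3 and 1 counts, and Elavl3 1 and 1. For T cells, Cd3g had 0 and 3 counts. The Thy1 level was above the summed level of this list in the library labelled Ahi1-/- (1338 and 192 TPM) and below it in WT (16.3 and 65.9 TPM). Ncam1 (87.3 and 36.3 TPM) and Tubb3 (85.3 and 27.1 TPM) made up most of the summed level. Such sums of chosen genes set no limit on the share of these cells. The part of neuronal and glial cells in the Thy1 difference was not tested. In bulk RNA, a different share of cells of a type and a different amount of RNA per cell cannot be told apart, here and below.

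**Figure D2:**
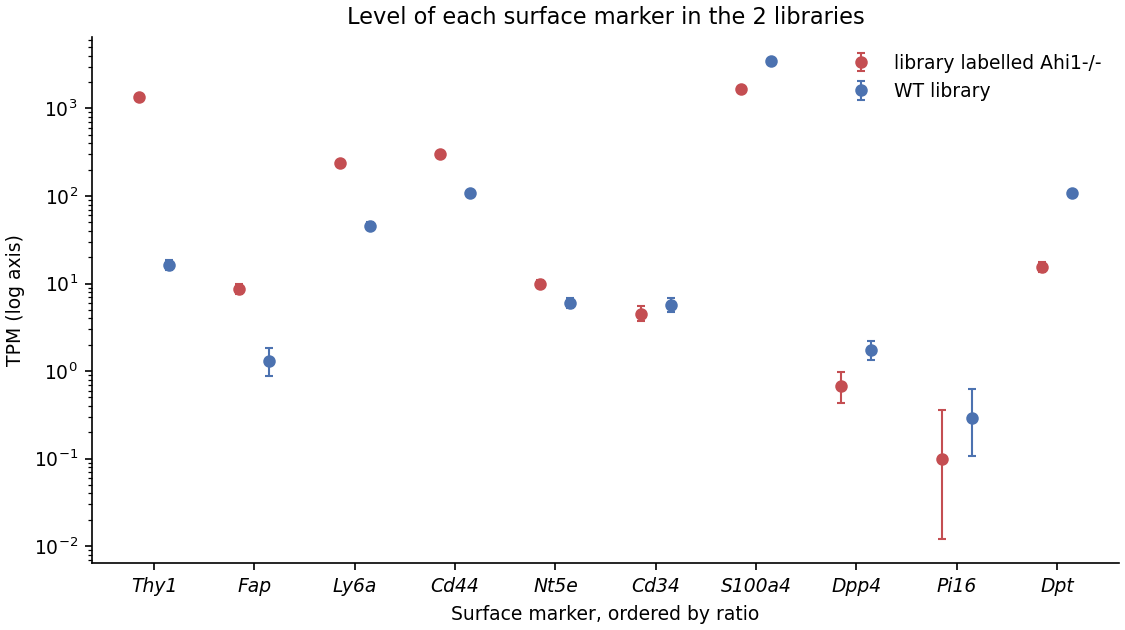
Level of each marker in TPM on a log axis, with the library labelled Ahi1-/- on the left and WT on the right of each pair, and bars for the exact 95% counting interval (Poisson). Thy1 lies at 1338 against 16.3 TPM, S100a4 has the highest level in both libraries, and Pi16 the lowest in both.

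Fap and Dpp4, which encode related serine peptidases of the cell membrane, differed in opposite directions. Fap (Entrez gene 14089, chromosome 2) encodes fibroblast activation protein, a collagen-trimming peptidase found on activated and embryonic fibroblasts. It had 205 counts in the library labelled Ahi1-/- and 32 in WT, or 8.70 and 1.29 TPM, 6.35-fold higher (4.36 to 9.53). Dpp4 (Entrez gene 13482, chromosome 2) encodes CD26, which removes dipeptides from chemokines and incretins and marks fibroblasts of the upper dermis and fascia. It had 25 and 61 counts, or 0.67 and 1.74 TPM, 2.46-fold lower (1.52 to 4.09). The level of Fap was 13 times that of Dpp4 in the library labelled Ahi1-/- and 0.741 times in WT, where the counting intervals of their levels overlap, so their order in WT is not set. Both are scarce transcripts. At 61 counts at most, the interval of Dpp4 reaches to below 2-fold.

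The Fap and Dpp4 genes lie close together on the chromosome, with only the glucagon gene Gcg (5 and 3 counts) between them in the count table. On the other side of Fap, Ifih1, a sensor of viral RNA, had 1088 and 1263 counts, a log2 ratio of -0.23, and the gene after it, Gca, 64 and 6. On the other side of Dpp4, Tbr1 had 9 and 3 counts and the proteasome gene Psmd14 1623 and 1446. Expected counts of Dpp4 were fractional (24.86 and 60.78), which marks reads shared with sequences outside the gene, and those of Fap were whole. The effective length implied by count over TPM was 1.09 times as large for Dpp4 in the library labelled Ahi1-/- as in WT (1.08 to 1.10 from the rounding of TPM), 0.973 times for Fap, and within 1.00 to the printed digits for Thy1, Dpt, Ly6a, S100a4 and Nt5e.

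Among relatives and partners of the dipeptidyl peptidases, all 11 measured genes reached 50 counts, 2 were higher and 0 lower, near the 16% and somewhat under the 10.3% of all genes, and the median (log2) was 0.40. The relatives inside the cell, Dpp8 and Dpp9, had 2971 and 2238 counts and 2164 and 2229 counts. Cav1, a caveolar protein reported to bind CD26 in human cells, was 4.57-fold higher (14978 and 3248 counts), and the lysosomal peptidase Prcp 2.26-fold (1066 and 468). The chemokine Cxcl12, a substrate of CD26, had 4221 and 8244 counts, a log2 ratio of -0.98.

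Ly6a was the third marker higher by more than 4-fold. Ly6a (Entrez gene 110454, chromosome 15) encodes SCA-1, a lipid-anchored protein of mouse stem and stromal progenitor cells. It had 1971 counts in the library labelled Ahi1-/- and 392 in WT, or 236 and 46.0 TPM, 4.98-fold higher (4.47 to 5.57). The deposited counts of Ly6a were fractional (1971.03 and 391.77), and Ly6 genes are close copies of one another, so a small part of its reads may belong to a relative. Next to Ly6a, Ly6c1 had 329 and 182 counts (1.79-fold), Ly6e 5629 and 4041 (1.38-fold) and Ly6i 4 and 0. Ly6a had a larger ratio than Ly6c1 and Ly6e, the neighbours with enough counts to read. Ly6g, also on chromosome 15, was 5.05-fold higher at 56 and 11 counts.

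Over the Ly6 family as listed, 6 of 9 measured genes reached 50 counts, 4 were higher and 0 lower, beside 16% and 10.3% of all genes, and the median (log2) was 0.86. The others at least 2-fold higher were Cd59a (329 and 35 counts), which blocks complement, Ly6g (56 and 11), Lynx1 (563 and 138), which tunes acetylcholine receptors, and the urokinase receptor Plaur (1012 and 371). Ly6a is known to be induced by interferons in mouse cells. The interferon-stimulated list had 1 of 18 genes higher and 4 lower, all 18 with at least 50 counts and beside 16% and 10.3% of all genes, a median of -0.38 (log2) and a summed level of 1873 and 2421 TPM. Cmpk2 had 182 and 1520 counts, Rsad2 298 and 1568, Ifit2 654 and 1736, and Oas1a 817 and 289. Ly6a was thus higher where most of that list had ratios below 0 (15 of 18). The part of interferon signalling in these values was not tested.

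Cd44 had the most counts among the higher markers after Thy1. Cd44 (Entrez gene 12505, chromosome 2) encodes the main receptor for the matrix polymer hyaluronan. Its 12054 counts in the library labelled Ahi1-/- and 4483 in WT, or 301 and 109 TPM, gave a 2.66-fold higher value (2.57 to 2.76). Isoforms of Cd44 with variant exons cannot be seen in counts per gene. Of 19 measured genes for hyaluronan turnover and CD44 partners, 15 reached 50 counts, 1 was higher and 3 were lower, beside 16% and 10.3% of all genes, and the median (log2) was -0.11. The higher one was Cemip, a hyaluronan-degrading protein (3809 and 56 counts, 67.4-fold). The lower ones were Hapln1, a link protein of cartilage hyaluronan (37 and 657 counts), Srgn, whose proteoglycan binds CD44 (13 and 80), and the membrane linker Ezr (657 and 2645). The synthase Has2 had 2188 and 1322 counts (log2 0.71), and the cytoskeletal linker Msn 23494 and 12583 (log2 0.89).

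Nt5e differed less than 2-fold. Nt5e (Entrez gene 23959, chromosome 9) encodes CD73, which makes adenosine outside the cell from AMP and is a standard marker of mesenchymal stromal cells. It had 320 counts in the library labelled Ahi1-/- and 199 in WT, or 9.91 and 6.02 TPM, 1.59-fold higher (1.33 to 1.91). Of 13 measured adenosine pathway genes 9 reached 50 counts, 2 were higher and 2 lower, counts near the shares of all genes (16% and 10.3%), and the median (log2) was 0.21. With a minimum of 10 counts 5 were higher and 3 lower, beside 19.4% and 11.7% of all genes. The adenosine receptor Adora2b (338 and 86 counts) and the ectoenzyme Enpp3 (90 and 20) were higher. The nucleoside transporter Slc29a2 (114 and 444) and the phosphatase Alpl (66 and 152) were lower. Entpd1, which encodes CD39 and supplies AMP to CD73, was scarce at 18 and 4 counts, while Enpp1, which also makes AMP from ATP, had 492 and 533, a log2 ratio of -0.13.

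Dpt was the member with the lowest ratio. Dpt (Entrez gene 56429, chromosome 1) encodes dermatopontin, a small matrix protein that binds decorin and marks broadly distributed fibroblasts in mouse tissues. It had 233 counts in the library labelled Ahi1-/- and 1685 in WT, or 15.3 and 108 TPM, 7.30-fold lower (6.36 to 8.40). Among the 12075 genes with the minimum count its ratio ranked 146 from the bottom. Decorin itself (Dcn) went the other way, with 6719 and 1285 counts, a log2 ratio of 2.37. In WT the levels of Dpt and Cd44 were alike, while in the library labelled Ahi1-/- that of Cd44 was 19.7 times that of Dpt. The genes on either side of Dpt in the count table, Atp1b1 (488 and 484 counts) and Sft2d2 (348 and 628), lay within 2-fold.

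Pi16, which with Dpp4 and Ly6a marks progenitor-like adventitial fibroblasts in adult mouse tissue, was near the limit of detection. Pi16 (Entrez gene 74116, chromosome 17) had 2 counts in the library labelled Ahi1-/- and 6 in WT, or 0.10 and 0.29 TPM. Its log2 ratio of -1.60 had an interval of -4.94 to 0.89, and no difference could be detected at this depth. Other genes of a wider list for adult mouse fibroblasts, not limited to adventitial ones, were measured. Of 18 such genes, 17 reached 50 counts. At least 2-fold more scaled counts in the library labelled Ahi1-/- were found for 10, and fewer by that factor for 0, beside 16% and 10.3% of all genes, and the median (log2) was 1.58. Cd55, a complement regulator, had 802 and 5 counts (159-fold), the microfibril gene Mfap5 653 and 6 (108-fold), the opioid precursor Penk 849 and 9 (93.5-fold), and Limch1 243 and 12 (20.1-fold). These had the largest ratios of the list. Igfbp6 (886 and 799 counts) and Tnxb (55 and 52) were nearly level, Ackr3 had 529 and 645, and Clec3b was scarce at 6 and 2. Of the measured genes 17 had ratios above 0 and 1 below. The members tied to adult mouse fibroblasts did not share a direction: Ly6a had a log2 ratio of 2.32, Dpp4 of -1.30 and Dpt of -2.87, and Pi16 could not be read.

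S100a4 was the most abundant marker in both libraries. S100a4 (Entrez gene 20198, chromosome 3) had 6949 counts in the library labelled Ahi1-/- and 14597 in WT, or 1686 and 3459.7 TPM, 2.12-fold lower (2.06 to 2.18). It ranked 96 by level among all genes in the library labelled Ahi1-/- and 27 in WT. Genes of chromosome 3 had a median log2 ratio of -0.26, and after subtracting it the value of S100a4 was -0.83, short of 2-fold. Its neighbour S100a6, which encodes a related calcium-binding protein, had 14284 and 8008 counts, a log2 ratio of 0.82, opposite in sign to the -1.08 of S100a4. S100a3, on the other side, had 14 and 47 counts, and S100a5 1 and 2.

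A list of other S100 genes, which also holds S100pbp (1325 and 1444 counts), a gene for a binding partner and not a family member, had 13 measured genes. Of these 8 reached 50 counts, 1 was higher and 1 lower, beside 16% and 10.3% of all genes, and the median (log2) was 0.32. With a minimum of 10 counts 3 were higher and 2 lower, beside 19.4% and 11.7% of all genes. S100a16 was higher (197 and 54 counts). The neutrophil gene S100a9 had 2 and 83 counts (log2 -5.39, -8.46 to -3.49). The abundant members S100a11 (11208 and 7753 counts) and S100a10 (2757 and 4119), which partners annexin A2, stayed within 2-fold. Macrophages also express S100a4, and the leukocyte list gave 15 measured genes, of which 6 reached 50 counts, 1 higher and 3 lower, beside 16% and 10.3% of all genes, and a median of -0.69 (log2). With a minimum of 10 counts 3 were higher and 7 lower, beside 19.4% and 11.7% of all genes. Its summed level was 59.7 and 54.7 TPM, of which Lyz2 gave 34.2 and 10.2 TPM. Such a sum of chosen genes sets no limit on the share of leukocytes. Of the 17 genes of this list in the table, 2 were at 0 in the library labelled Ahi1-/- and 0 in WT. Coro1a had 11 and 136 counts, Cd14 85 and 199, Laptm5 26 and 53, and the macrophage lysozyme Lyz2 315 and 96. Under 50 counts, the pan-leukocyte gene Ptprc had 10 and 23 counts, while Adgre1 had 39 and 4 and Itgam 39 and 12. Of the measured leukocyte genes 5 had ratios above 0 and 10 below. The part of leukocytes in the S100a4 and Cd44 values was not tested.

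Cd34 was nearly level. Cd34 (Entrez gene 12490, chromosome 1) encodes a sialomucin of blood progenitors, vessels and interstitial fibroblasts. It had 101 counts in the library labelled Ahi1-/- and 132 in WT, or 4.53 and 5.73 TPM, a log2 ratio of -0.40 (-0.79 to -0.01), 1.32-fold lower. Endothelial genes were scarce, with a summed level of 15.2 and 35.1 TPM and 3 and 0 of 15 genes at 0. Only 2 of the 10 measured ones reached 50 counts. Both were lower, Plvap (15 and 153 counts) and Egfl7 (117 and 236), beside 10.3% of all genes. With a minimum of 10 counts 1 was higher and 5 were lower, beside 19.4% and 11.7% of all genes, and the median of the list (log2) was -1.69. The rest were mixed: Erg had 31 and 13 counts, Kdr 20 and 20, Tek 9 and 8, and Emcn 8 and 1, while Cdh5 had 1 and 9, Pecam1 2 and 7, Vwf 7 and 24, Sox18 1 and 13, Tie1 0 and 20 and Esam 3 and 9. Blood progenitor genes had a summed level of 54.6 and 26.5 TPM, with 3 and 1 of 11 genes at 0. Of the 8 measured ones 3 reached 50 counts. Of these 2 were higher and 0 lower, beside 16% and 10.3% of all genes. The higher ones were Runx1 (2693 and 1006 counts) and Gata2 (283 and 91), which made up most of the summed level. With a minimum of 10 counts 2 were higher and 3 lower, beside 19.4% and 11.7% of all genes. The lower ones were Gata1 (0 and 10), Myb (8 and 41) and Tal1 (2 and 33), and the median of the list (log2) was -0.87. Itga2b had 47 and 93 counts, Flt3 17 and 26, Lmo2 9 and 15 and Kit 3 and 0. Cd34 thus differed less than the medians of both lists, and their part in its value was not tested.

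**Figure D3:**
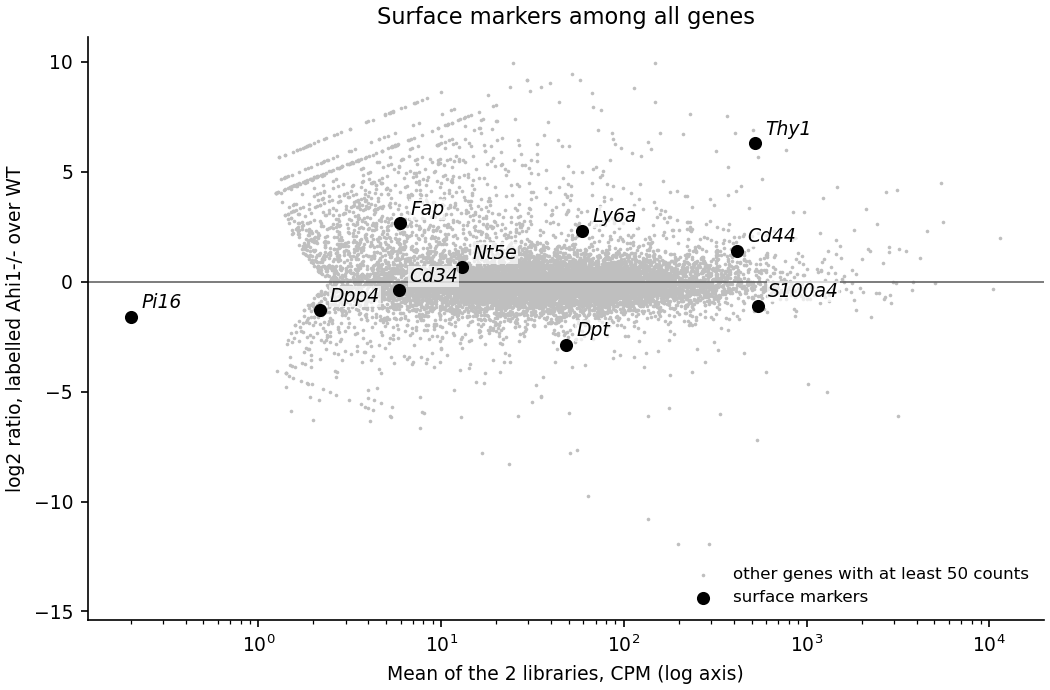
Log2 ratio (labelled Ahi1-/- over WT) against the mean CPM of both libraries on a log axis, with the 10 markers as black points and in grey the other genes that reached 50 counts in either library. Thy1 and S100a4 have similar means but ratios of 6.31 and -1.08, and Pi16 lies left of the grey cloud.

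Order of level also differed between the libraries. In the library labelled Ahi1-/- it ran S100a4, Thy1, Cd44, Ly6a, Dpt, Nt5e, Fap, Cd34, Dpp4 and Pi16. Nt5e and Fap were the only neighbours in that order with overlapping counting intervals (8.85 to 11.1 and 7.55 to 9.98 TPM). In WT it ran S100a4, Cd44, Dpt, Ly6a, Thy1, Nt5e, Cd34, Dpp4, Fap and Pi16. There the intervals overlapped for Cd44 and Dpt (106 to 112 and 103 to 113 TPM), for Nt5e and Cd34 (5.21 to 6.92 and 4.79 to 6.80 TPM) and for Dpp4 and Fap (1.33 to 2.24 and 0.882 to 1.82 TPM). Thy1 was number 2 in the library labelled Ahi1-/- and number 5 in WT, and Dpt number 5 and number 3.

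Summed over the 10 markers the level was close, at 3600.4 TPM in the library labelled Ahi1-/- and 3754 TPM in WT, but its makeup differed. S100a4 made up 46.8% of the sum in the library labelled Ahi1-/- and 92.2% in WT. Thy1 made up 37.2% and 0.435%. Cd44 gave 8.36% and 2.91%, Ly6a 6.56% and 1.22%, and Dpt 0.425% and 2.88%. Near equality of the summed TPM thus came with more Thy1, Cd44 and Ly6a and less S100a4 and Dpt. Summed counts, which are not corrected for length, were not close. They were 42491 in the library labelled Ahi1-/- and 21845 in WT, or 0.204% and 0.115% of the counts of each library.

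**Figure D4:**
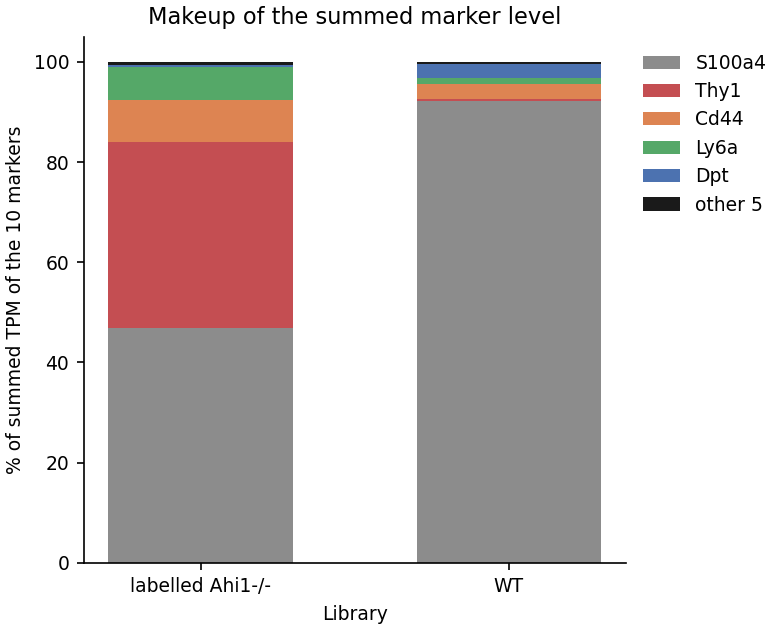
Share of each marker in the summed TPM of the 10 markers, in percent, with the library labelled Ahi1-/- on the left and WT on the right, and the 5 least abundant markers joined. S100a4 takes 46.8% and 92.2% of the bars, and Thy1 37.2% and 0.435%.

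Most of the listed fibroblast genes were read in both libraries, with exceptions: Tcf21 had 0.18 and 0 TPM, and Lum (3.74 TPM) and Pdgfra (13.3 TPM) were low in WT. Of 19 measured fibroblast identity genes 11 passed the 2-fold rule upward in the library labelled Ahi1-/-, 0 passed it downward, beside 16% and 10.3% of all genes, and the median (log2) was 1.36, at a summed level of 28067 and 11225 TPM. Vim had 76885 and 76011 counts, a log2 ratio of 0.00. Col1a1 had 367100 and 91910 counts, Col1a2 193937 and 29308, the matrix protein Postn 56193 and 2782, the growth factor receptor Pdgfra 6265 and 795, and lumican (Lum) 3284 and 71. Other mesenchymal stromal surface genes were higher for 10 of 20 measured genes and lower for 0, again beside 16% and 10.3% of all genes. Of these 18 reached 50 counts, and the median (log2) over the measured ones was 0.97. Endoglin (Eng), which is used with Thy1 and Nt5e to define mesenchymal stromal cells, had 646 and 60 counts (10.7-fold). The tetraspanin Cd81 had 8003 and 1487 (5.33-fold) and endosialin (Cd248) 7794 and 1557 (4.96-fold). The nerve growth factor receptor Ngfr had 64 and 0 counts, 21.1-fold higher (log2 4.40) with WT set to a floor of 3 counts. The counting interval of Ngfr starts at log2 4.06 and has no upper end. Thy1, Eng and Nt5e, used together in sorting, thus had ratios of 79.3, 10.7 and 1.59.

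**Figure D5:**
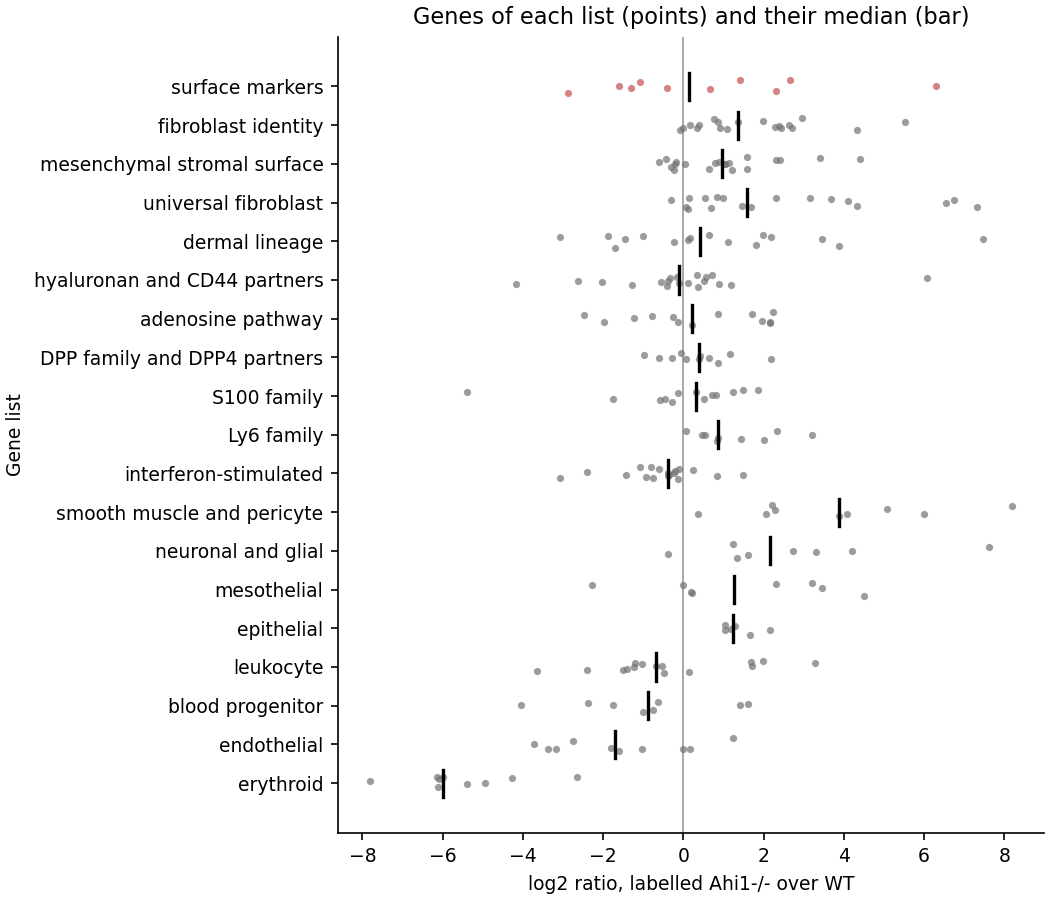
Log2 ratio (labelled Ahi1-/- over WT) of each gene (points) in each list, with the median as a black bar. Red points are the 10 markers, which spread from -2.87 to 6.31 around a median of 0.14, and lists of other cell types stand below. The other lists show only genes with at least 10 counts over both libraries. By that rule, which leaves out Pi16, the median of the markers is 0.67.

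Position along the chromosome was also read. In GRCm38.p6, genes for other RNAs overlap Pi16 (Gm46603), Dpt (Gm32569), Cd34 (Gm16897), Ly6a (Gm28068) and Cd44 (Gm23731). None of these is in the count table, and without a stated use of strand their reads cannot be told apart from those of the members. The members lie on 6 chromosomes, and after subtracting the median of each member's own chromosome their signs were the same as before. Of 37 other genes next to a member, within 2 places on either side in the count table, 25 reached the minimum count, 7 were at least 2-fold higher and 0 lower, beside 16% and 10.3% of all genes. Thy1 had Nectin1 (691 and 116 counts, 5.90-fold higher) on one side and Usp2 (246 and 145, 1.68-fold) and C1qtnf5 (502 and 56, 8.88-fold higher) on the other. Cd44 had Slc1a2 (13 and 1) and Pamr1 (116 and 7, 16.4-fold higher) on one side and Pdhx (352 and 443) and Apip (276 and 269) on the other, and Nt5e had Tbx18 (759 and 171) and Snx14 (831 and 827).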

How the data were processed

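The authors deposited expected counts and TPM values for 17260 genes and, in a second table, FPKM values for 3872 genes, per the file headers. That FPKM table holds only genes at least 2-fold apart, as read from its values, and 7 of the 10 markers are in it. Build mm8, RSEM 1.2.12, HISAT2 2.0.4 and Bowtie2 2.2.5 appear, with no role, in the submitters' processing notes. Annotation and strand use: not given in the sources used here. No replicates exist, so counting error is the only error known.

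Expected counts were rounded and scaled with TMM (edgeR 4.0.16, R 4.3.3). Each ratio is the library labelled Ahi1-/- over WT, with an exact (Clopper-Pearson) 95% interval. A gene at 0 was set to 3 counts, also in list medians, and got no ratio where the other library had 3 counts or fewer. List members were measured with at least 10 counts over both libraries. The calculation was tested on simulated data. Python 3.11.15 with scipy 1.17.1 was used after scaling. Chromosomes and neighbours come from GRCm38.p6, which matched 17210 gene identifiers and is not the build in the notes.

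The members and the 18 gene lists were chosen with earlier results of these data known. Named genes are all members, up to 4 per list with the largest ratios meeting the 2-fold rule (else the 2 with the most counts), and for cell type lists also the 2 with the most counts. Dcn, Has2, Msn, Entpd1, Enpp1, S100pbp, Cd3g, Ptprc, Adgre1, Itgam, Igfbp6, Tnxb, Ackr3, Clec3b, Vim, Tcf21, the neuronal, endothelial and blood progenitor genes under 50 counts, Itga2b, Rgs5, Kcnj8, Dpp8, Dpp9, Cxcl12, S100a10, S100a11 and the neighbours fall outside that rule and were chosen after their values were seen. Alternatives covered scaling, the minimum count, the fold and the floor. A few list genes are counted in the list totals but not reported here by name.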

Additional observations from a re-analysis of the deposited data

How the results depend on the processing

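No paired analysis was possible because each genotype had 1 library, and for the same reason no library could be left out. Depth limits Pi16, Dpp4 and Fap most. All 10 member ratios kept their sign under every alternative run, and 54 of 67 recomputed values stayed within the counting interval of the main value. Those 54 include 1 value per member from a floor of 1 count. No member was at 0, so that change could not alter any of them. Total counts moved the median of all genes by -0.11 on the log2 scale. S100a4 was then -1.20 and Cd44 1.30, with upper quartile scaling -1.03 and 1.47, with deposited TPM -1.04 and 1.46, and with deposited FPKM, added after seeing the data, -1.20 and 1.30. Subtracting chromosome medians gave -0.83 for S100a4, 1.56 for Cd44, 6.11 for Thy1, -3.14 for Dpt and 2.49 for Ly6a. Members at least 2-fold lower numbered 3, but 2 with chromosome medians subtracted (chosen after seeing the data for this count) and 1 at 4-fold. Over all context lists 65 genes were higher and 28 lower, of 168 with at least 50 counts, beside 16% and 10.3% of all genes. At 4-fold these were 38 and 18, beside 8.93% and 2.48% of all genes. The lower ones numbered 43 with a minimum of 10 counts and 45 without a minimum, beside 11.7% and 12.9% of all genes. For single lists, 269 of 324 recomputed counts stayed within 1.5 times the main count. The cause of each move beyond the changed threshold or scaling was not tested.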

Other observations

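Markers of further cell types that a culture of embryonic fibroblasts can hold were read in the same way, beside 16% of all genes higher and 10.3% lower. Smooth muscle and pericyte genes had 5 of 9 measured genes (6 with at least 50 counts) past 2-fold upward in the library labelled Ahi1-/-, 0 downward, a median of 3.87 (log2) and a summed level of 8227 and 367 TPM. Cnn1 had 5879 and 20 counts, Tagln 30337 and 468, Myh11 1466 and 43, and Acta2 102889 and 6025. The ratios of the measured genes ran from log2 0.36 to 8.19. That wide range held every marker with a ratio above 0, Thy1 (6.31) included. The part of smooth muscle cells and pericytes in the Thy1 difference was not tested. The pericyte genes Rgs5 (44 and 9 counts) and Kcnj8 (14 and 0) were scarce.

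Erythroid genes had 0 of 9 measured genes (8 with at least 50 counts) higher, 8 lower, a median of -5.98 (log2) and a summed level of 23.3 and 1740.1 TPM. Among them were Hbb-b1 (9 and 1998 counts), Hba-a1 (78 and 5284), Hbb-bs (15 and 1034) and Alas2 (3 and 209). Globin copies share sequence, so their single counts are uncertain. Epithelial genes had 5 of 6 measured genes (5 with at least 50 counts) higher, 0 lower (median 1.24, summed level 45.9 and 18.9 TPM), with Krt8 at 421 and 203 counts, Epcam at 128 and 40, Cdh1 at 89 and 36 and Krt18 at 50 and 11. Mesothelial genes had 1 of 8 (4 with at least 50 counts) higher and 1 lower (median 1.27, summed level 68.7 and 54.9 TPM). With a minimum of 10 counts 4 of them were higher and 1 lower, beside 19.4% and 11.7% of all genes. Bnc1 had 69 and 3 counts, Podxl 12 and 58, Krt19 680 and 592 and Wt1 79 and 67. Dermal lineage genes had 5 of 16 (12 with at least 50 counts) higher and 4 lower (median 0.41). Itga8 had 540 and 0 counts, 178-fold higher (log2 7.48) against a floor of 3 counts. The counting interval of Itga8 starts at log2 7.18. Among the others were Crabp1 with 8343 and 558 counts, Axin2 with 123 and 11 and Sox2 with 10 and 83.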
